A study of Mus musculus with 24 samples.

Results

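The tooth germ genes described here are 9 genes with known roles in the forming tooth: Ambn, Sp6, Eda, Edar, Lhx6, Lhx8, Pax9, Bcl11b and Sox2. They were chosen by symbol from the array's annotation, are 9 of the 18193 genes measured, and were read by 23 of the 34945 probe sets that carry a single gene symbol. Where a gene had several probe sets, the brightest on average gave the value used below. All 9 genes passed the filter on low values, which kept the 12811 genes that lay above an array's median signal on 3 or more of the 24 arrays. Values are log2 signals, and a difference of 1 on this scale is a doubling.

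The samples were pieces of embryonic jaw from C57B6 mice at embryonic day 14.5. The parents were Wnt1cre;Tgfbr2 fl/+ and Tgfbr2 fl/fl, so every embryo of the cross, control littermates included, carried at least 1 floxed allele of Tgfbr2, the type II TGF-beta receptor gene. Wnt1-Cre acts in cranial neural crest cells, which form the mesenchyme of the jaw and of the tooth germ but not its epithelium. Mutant embryos were picked by their cleft palate and calvarial defect, and the labels do not spell out the alleles of the control littermates. Each mutant and control maxilla (upper jaw) and mandible (lower jaw) was cut into a distal and a proximal end, which gave 8 groups of 3 arrays by genotype, jaw and end. The labels do not say whether the 3 samples of a group came from separate embryos, from separate litters or from pools, and the p-values therefore speak only to the spread among these arrays, part of which may be technical.

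A tooth begins as a thickening of the oral epithelium that grows into the underlying neural crest mesenchyme and is folded into a bud, a cap and then a bell, with signals passing between both tissues at each stage. Among the 9 genes, Ambn encodes ameloblastin, a protein of the enamel matrix, and Sp6 encodes epiprofin, a zinc-finger factor of the dental epithelium. Eda encodes the ligand ectodysplasin and Edar its receptor on epithelial cells, a pair required for normal teeth, hair and glands. Lhx6 and Lhx8 encode LIM-homeodomain factors and Pax9 a paired-box factor of the dental mesenchyme, and mice that lack Pax9 or both Lhx genes fail to form molars. Bcl11b encodes a zinc-finger factor of the dental epithelium, skin, neurons and T cells, and Sox2 an HMG-box factor of the dental lamina and of the epithelial progenitors of the mouse incisor, which is also made in nasal epithelium, neural cells and glia.

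The promoters of the members that passed the test together in the mutant proximal maxilla, below, are shown so that their sequence can be read beside their values. RefSeq promoter windows (assembly GRCm38.p6, 250 bases before to 50 bases after the start, 300 bases in all) were at hand for 8 of the 9 members. Sp6 had no entry. The windows shown are Ambn (chr5:88455741-88456040, plus strand), Lhx8 (chr3:154330511-154330810, minus strand), Eda (chrX:99975356-99975655, plus strand) and Sox2 (chr3:34649745-34650044, plus strand), each written 5′ to 3′ along its gene, with any match to a searched motif in capitals.
Ambn: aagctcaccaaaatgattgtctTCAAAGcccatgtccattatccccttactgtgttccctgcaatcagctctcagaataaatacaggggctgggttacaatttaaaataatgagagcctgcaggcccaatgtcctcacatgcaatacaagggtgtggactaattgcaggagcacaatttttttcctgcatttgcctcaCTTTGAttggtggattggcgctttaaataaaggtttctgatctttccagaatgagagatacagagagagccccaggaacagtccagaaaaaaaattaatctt
Lhx8: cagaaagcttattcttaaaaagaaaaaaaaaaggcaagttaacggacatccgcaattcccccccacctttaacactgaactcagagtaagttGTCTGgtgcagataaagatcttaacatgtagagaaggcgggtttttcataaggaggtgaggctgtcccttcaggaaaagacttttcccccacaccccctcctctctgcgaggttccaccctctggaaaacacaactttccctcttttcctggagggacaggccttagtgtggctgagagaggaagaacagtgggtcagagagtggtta
Eda: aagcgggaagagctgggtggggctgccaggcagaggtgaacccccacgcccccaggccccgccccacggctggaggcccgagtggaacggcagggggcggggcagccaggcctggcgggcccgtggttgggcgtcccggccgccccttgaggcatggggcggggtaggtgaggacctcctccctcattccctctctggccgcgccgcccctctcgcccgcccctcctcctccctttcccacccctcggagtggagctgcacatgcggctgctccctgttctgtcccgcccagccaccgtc
Sox2: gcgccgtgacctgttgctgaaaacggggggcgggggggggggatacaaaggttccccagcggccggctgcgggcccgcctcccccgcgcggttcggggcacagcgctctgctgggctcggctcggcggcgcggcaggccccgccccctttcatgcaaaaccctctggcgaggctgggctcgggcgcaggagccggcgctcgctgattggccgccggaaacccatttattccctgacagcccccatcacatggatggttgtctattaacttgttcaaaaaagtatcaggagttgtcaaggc
Each window was searched on both strands for 4 short motifs: the homeodomain core TAATTA, the Smad box GTCTG, the LEF/TCF core CTTTGA and the TATA box TATAAA. The capitals in the Ambn window mark the LEF/TCF core, whose first bases lay at -228 and -52 relative to the start, and the capitals in the Lhx8 window mark a Smad box at -158. In the Eda and Sox2 windows these letters do not occur. Over 32851 promoter windows of this length, 16% held the LEF/TCF core, 49.6% the Smad box, 13.6% the TATA box and 5.29% the homeodomain core, so the matches are common ones and are given only as a description.

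Markers of other tissues differed between the maxilla arrays. The mean of a list of nasal and olfactory epithelium markers (log2, centred on all 24 arrays) was -1.52, -1.33 and 2.50 in mutant proximal maxilla 1 to 3, against 3.28, 3.35 and 3.26 in the controls. In the distal maxilla it was -0.51, 0.85 and 1.35 in mutants and 2.53, 0.52 and 2.49 in controls, and in all 12 mandible arrays it lay between -1.47 and -1.26. Mutant distal maxilla 1 and mutant proximal maxilla 1 and 2 were also the mutant maxilla arrays with the highest muscle means (1.15, 1.85 and 1.00, against -1.49, -2.34 and -1.37 in control distal and -1.49, -1.89 and -0.91 in control proximal maxilla) and the lowest cartilage means. Since all 3 are mutants, the make-up of the piece and the genotype cannot be told apart in them, and values of the 9 genes between genotypes in the maxilla are given with and without them. Where they are left out, the proximal maxilla keeps 1 mutant array, which is then taken to vary as the arrays of the other groups do. Mandible arrays differed too. In the distal mandible the muscle mean was -0.47 to 0.32 in mutants and 0.69 to 1.47 in controls. The cartilage mean there was -2.28, 0.22 and -1.98 in mutants 1 to 3 and 0.79, 0.99 and -0.34 in controls 1 to 3. The mean of an epithelium marker list was 0.45 to 0.77 in mutants and -0.19 to 0.7 in controls of this region. In the proximal mandible the cartilage mean was 1.23 to 1.58 in mutants and -1.14 to 0.84 in controls. Make-up and genotype are not told apart in the mandible either. Tgfbr2 itself was higher in mutants in the proximal maxilla (0.78 ± 0.09, adjusted p = 8.9e-05; 0.55 ± 0.07, adjusted p = 0.00218, without the 3 arrays), and since the sources do not name the deleted exon, its probe set does not check the genotype.

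**Figure D1:**
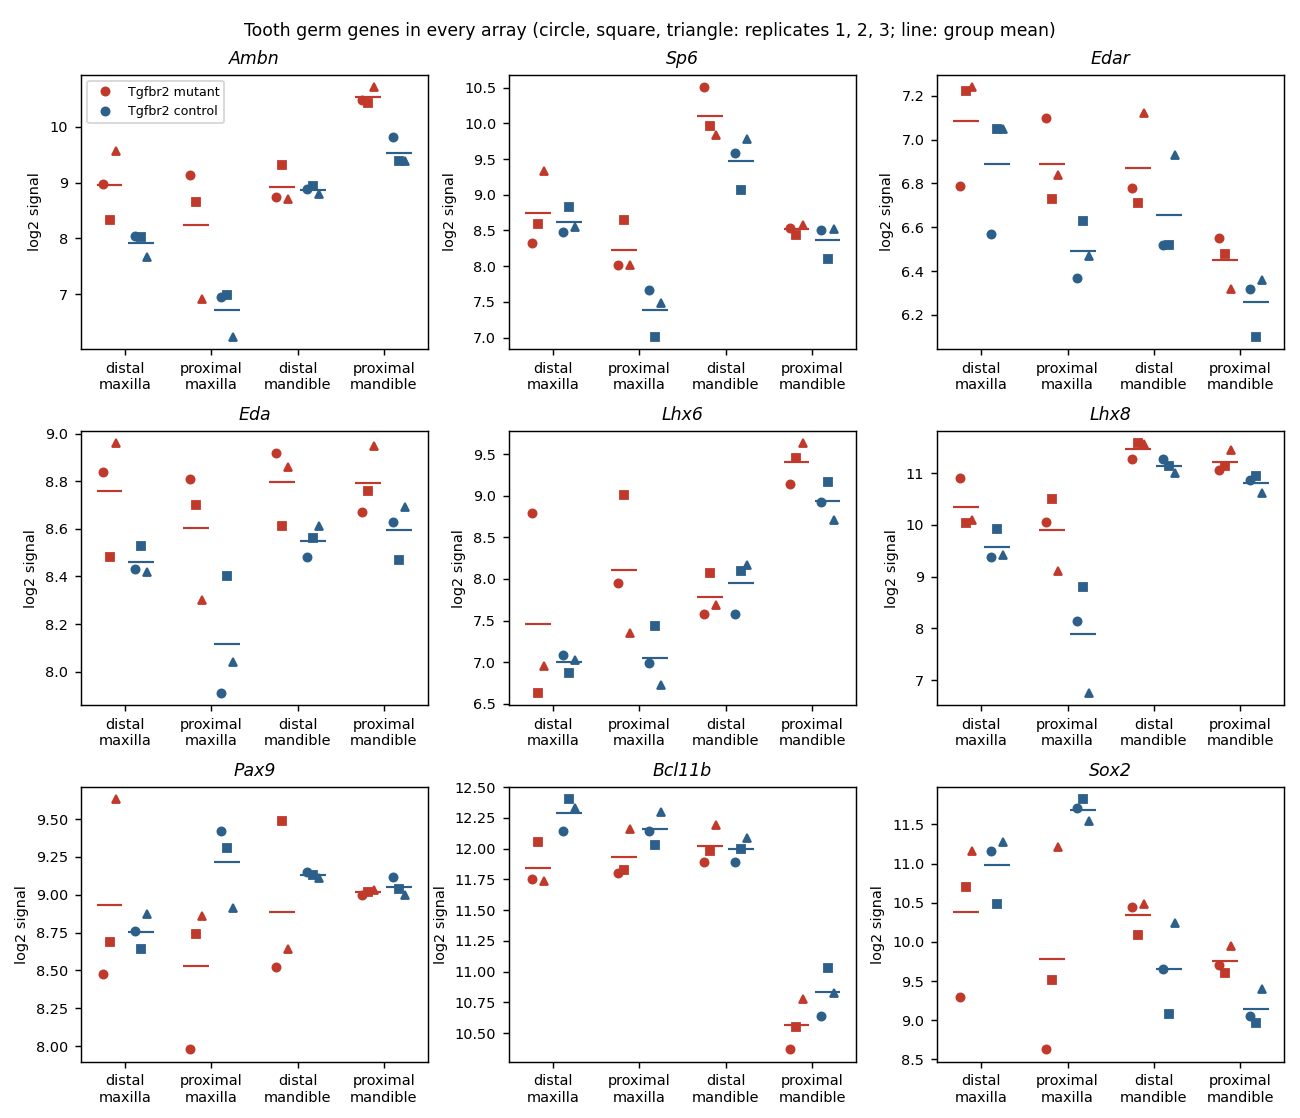
Log2 signal of each tooth germ gene in all 24 arrays, by jaw and end, with mutants in red left of controls in blue; symbols give the replicate and lines the group means. The controls of Ambn, Lhx6 and Lhx8 are higher in the mandible than in the maxilla at the proximal end, and those of Sox2 and Bcl11b lower.

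Between mutants and controls, 5 of the 9 tooth germ genes passed the test in the proximal maxilla. Lhx8, Ambn, Sp6 and Eda were higher and Sox2 was lower in mutants. Over all genes tested, 23.3% passed in this comparison, 12.2% higher and 11.1% lower, so a large share of the transcriptome differed there too. The other 4 members had differences of 1.06 ± 0.43 (Lhx6, adjusted p = 0.0842), 0.40 ± 0.16 (Edar, adjusted p = 0.0793), -0.68 ± 0.27 (Pax9, adjusted p = 0.0751) and -0.23 ± 0.13 (Bcl11b, adjusted p = 0.24) and did not pass. In the 3 remaining regions no member passed: 0 of 9 in the distal maxilla (background 0.195%, 3 members at an unadjusted limma p under 0.05), 0 of 9 in the distal mandible (0.742%, 1 member) and 0 of 9 in the proximal mandible (4.34%, 1 member). Values of mutants and controls did not overlap for 5 members in the proximal maxilla (Lhx8, Pax9, Edar, Sp6 and Sox2, beside 36.2% of all genes), 3 in the distal maxilla (Ambn, Lhx8 and Bcl11b, 11.6%), 2 in the distal mandible (Sp6, and Lhx8 by less than the rounding used here, 22%) and 3 in the proximal mandible (Ambn, Lhx8 and Sox2, 24.2%). Each difference is mutant minus control ± its limma standard error (3 arrays in each group), and adjusted p-values are those of limma with Benjamini-Hochberg adjustment over all genes tested. In pieces of tissue, more cells of a type and more RNA per cell cannot be told apart.

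The enamel matrix gene Ambn (probe set 1449417_at) had its highest values in the proximal mandible, with 10.47, 10.42 and 10.71 in mutants, against 9.81, 9.39 and 9.39 in controls. Its proximal maxilla values were 9.14, 8.65 and 6.91 in mutants, against 6.96, 6.98 and 6.24 in controls. Mutant replicates 1 and 2 lay far above every control there, while mutant replicate 3, whose nasal marker mean was near that of the controls, fell within the control range. In the distal maxilla the values were 8.97, 8.33 and 9.56 in mutants and 8.05, 8.03 and 7.67 in controls, with no overlap, and in the distal mandible 8.75, 9.32 and 8.70 in mutants and 8.88, 8.93 and 8.80 in controls, with full overlap. The difference was 1.51 ± 0.40 in the proximal maxilla (adjusted p = 0.0114), while the distal maxilla (1.03 ± 0.40, adjusted p = 0.435), the proximal mandible (1.00 ± 0.40, 0.166) and the distal mandible (0.05 ± 0.40, 0.976) did not pass. The proximal mandible difference passed with array weights (1.12, adjusted p = 0.014), without the 3 maxilla arrays (1.00, adjusted p = 0.0341) and in a fit to the compared groups alone (1.00, adjusted p = 0.0269), and that of the distal maxilla with array weights (1.30, adjusted p = 0.0171). Ambn is also made by bone-forming cells of the mouse, and in the proximal mandible, where it was highest, the mean of the bone marker list was 1.36 to 1.76 in mutants and 0.91 to 1.45 in controls, while the remaining arrays lay between -1.63 and 0.76. The part of bone in the Ambn level was not tested.

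Sp6 (probe set 1437788_at) was highest in the distal mandible, at 10.51, 9.96 and 9.84 in mutants and 9.59, 9.06 and 9.78 in controls. All 3 mutants lay above all 3 controls there, by a difference of 0.63 ± 0.26 that did not pass (adjusted p = 0.308). At the proximal end of the maxilla Sp6 read 8.01, 8.65 and 8.02 in mutants, against 7.67, 7.01 and 7.49 in controls. The groups did not overlap, and the increase of 0.83 ± 0.26 passed (adjusted p = 0.0257). Its other probe sets did not pass there: 1427787_at gave 0.79 ± 0.28 and 1442342_at 0.17 ± 0.14 (adjusted p = 0.0541 and 0.439 in a fit over all probe sets). In this region the mutant replicate 3 moved with the other mutants: its value of 8.02 was above every control. Sp6 read 8.32, 8.59 and 9.34 in mutant distal maxilla, against 8.48, 8.83 and 8.55 in controls, and 8.54, 8.44 and 8.58 in mutant proximal mandible, against 8.50, 8.10 and 8.52 in controls. The mutant and control ranges overlapped in both, with differences of 0.13 ± 0.26 (adjusted p = 0.934) and 0.15 ± 0.26 (adjusted p = 0.814). Sp6 is also made in hair follicles, whose marker list had means of 0.69, 1.96 and 0.86 in mutant proximal maxilla, against -0.91, -0.71 and -0.32 in controls, with 3 of 4 tested genes higher in mutants. The part of hair follicles in the Sp6 difference was not tested.

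Eda, the ligand gene (probe set 1449524_at), spanned a narrow range. It read 8.81, 8.70 and 8.30 in mutant proximal maxilla, against 7.91, 8.40 and 8.04 in controls, and mutant replicate 3 fell below control replicate 2. The increase was 0.48 ± 0.14 (adjusted p = 0.0215). The differences in the distal maxilla (0.30 ± 0.14, adjusted p = 0.543), the distal mandible (0.24 ± 0.14, 0.515) and the proximal mandible (0.20 ± 0.14, 0.488) had the same sign and did not pass. The 12 mutant values of Eda lay between 8.30 and 8.96 and the 12 control values between 7.91 and 8.69. Another Eda probe set, 1419597_at, gave 0.35 ± 0.10 in the proximal maxilla (adjusted p = 0.0226 in a fit over all probe sets).

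Edar, the receptor gene (probe set 1419724_at), was dim: it exceeded the array's median in only 6 of the 24 arrays, so its differences may be understated. It read 7.10, 6.73 and 6.84 in mutant proximal maxilla, against 6.37, 6.63 and 6.47 in controls, without overlap, with a difference of 0.40 ± 0.16 (adjusted p = 0.0793). The differences were 0.19 ± 0.16 in the distal maxilla, 0.21 ± 0.16 in the distal mandible and 0.19 ± 0.16 in the proximal mandible, none past the threshold (adjusted p = 0.794, 0.621 and 0.563). Ligand and receptor thus had a positive sign in all 4 regions, with a passing difference for the ligand in the proximal maxilla.

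Lhx8 (probe set 1427300_at) had the largest mutant difference of the 9 genes in any region. It read 10.06, 10.51 and 9.11 in mutant proximal maxilla, against 8.14, 8.80 and 6.75 in controls. The groups did not overlap, although the controls spread over 2 log2 units, and the increase was 2.00 ± 0.39 (adjusted p = 0.00171). In the distal maxilla the values were 10.91, 10.04 and 10.09 in mutants and 9.38, 9.92 and 9.42 in controls, again without overlap, with a difference of 0.77 ± 0.39 (adjusted p = 0.582). In the mandible Lhx8 was high in every array, at 11.28, 11.58 and 11.56 in mutant distal mandible, against 11.28, 11.14 and 11.00 in controls, and at 11.07, 11.14 and 11.45 in mutant proximal mandible, against 10.86, 10.95 and 10.62 in controls. The distal mandible groups touched at 11.28, where the lowest mutant and the highest control were equal to 2 decimals, and the proximal ones did not overlap. The differences there did not pass, at 0.33 ± 0.39 (adjusted p = 0.79) and 0.41 ± 0.39 (adjusted p = 0.618).

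Lhx6 (probe set 1425094_a_at), the related LIM-homeodomain gene, varied more between mutant maxilla arrays than between genotypes. It read 7.95, 9.01 and 7.35 in mutant proximal maxilla, against 6.99, 7.43 and 6.72 in controls. In the distal maxilla mutant replicate 1 read 8.79 and the other mutants 6.63 and 6.95, against 7.09, 6.87 and 7.03 in controls. The mutant and control ranges overlapped in both ends. The proximal maxilla difference of 1.06 ± 0.43 did not pass, but passed with array weights (1.87, adjusted p = 1.42e-05), with the epithelium mean as a covariate (1.28, adjusted p = 0.0133) and without mutant proximal maxilla 3 (1.43, adjusted p = 0.0215). Without mutant distal maxilla 1 the difference in that region was -0.20, against 0.46 ± 0.43 with it (adjusted p = 0.819). In the proximal mandible Lhx6 read 9.14, 9.45 and 9.63 in mutants and 8.93, 9.17 and 8.71 in controls (0.47 ± 0.43, adjusted p = 0.596), and in the distal mandible 7.58, 8.07 and 7.69 in mutants and 7.58, 8.09 and 8.17 in controls (-0.16 ± 0.43, adjusted p = 0.923).

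Pax9 (probe set 1421247_at) was, with Eda, one of the 2 members with the narrowest span of group means, at 0.68, and had a pooled SD of 0.35 within groups. In the proximal maxilla it read 7.98, 8.74 and 8.86 in mutants, against 9.42, 9.31 and 8.91 in controls, all 3 mutants below all 3 controls. The difference of -0.68 ± 0.27 did not pass (adjusted p = 0.0751). It passed once mutant proximal maxilla 3 was left out (-0.85, adjusted p = 0.0364). The remaining probe sets of Pax9, 1442229_at and 1421246_at, gave -0.88 ± 0.39 and -0.68 ± 0.44 there (adjusted p = 0.125 and 0.319). In the proximal mandible 1421247_at was nearly identical in all arrays, with means of 9.02 ± 0.02 in mutants and 9.05 ± 0.06 in controls (SD, n = 3). By 1442229_at, Pax9 read 8.84 to 9.13 in mutants and 8.55 to 8.82 in controls there, without overlap (0.34 ± 0.39, adjusted p = 0.696 in the limma fit over all probe sets). By 1421246_at it read 6.99 to 7.68 in mutants and 7.35 to 7.47 in controls.

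Bcl11b (probe set 1435227_at) read 11.75, 12.05 and 11.74 in mutant distal maxilla, against 12.14, 12.40 and 12.33 in controls. The mutants were all lower, by 0.44 ± 0.13 on the log2 scale, and the adjusted p was 0.24. In the proximal maxilla it read 11.80, 11.83 and 12.16 in mutants and 12.14, 12.03 and 12.30 in controls (-0.23 ± 0.13, adjusted p = 0.24), with overlap. Array weights let Bcl11b pass at both ends of the maxilla (-0.45, adjusted p = 0.0291, at the distal and -0.36, adjusted p = 0.00613, at the proximal end). 1 of its 4 probe sets, 1450339_a_at, was lower in mutants in the proximal maxilla by -0.64 ± 0.22 (adjusted p = 0.0432 in the fit over all probe sets), whereas the remaining 3 did not pass there. In the distal mandible Bcl11b read 11.89, 11.98 and 12.19 in mutants and 11.89, 12.00 and 12.09 in controls, and in the proximal mandible 10.37, 10.55 and 10.78 in mutants and 10.64, 11.03 and 10.83 in controls. Neither mandible difference passed (0.03 ± 0.13, adjusted p = 0.956, and -0.27 ± 0.13, adjusted p = 0.28). Of 6 measured T cell markers, Cd3g, Cd3d and Cd2 never exceeded the array median, and of the 3 tested 1, Thy1, was higher in mutant proximal maxilla. The T cell list mean was -0.03 to 0.24 in mutant and -0.32 to -0.23 in control proximal maxilla, and its part in the Bcl11b values was not tested.

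Sox2 (probe set 1416967_at) had mutant effects of opposite sign in the 2 jaws. It read 8.63, 9.52 and 11.21 in mutant proximal maxilla, against 11.71, 11.82 and 11.54 in controls, and 9.30, 10.70 and 11.16 in mutant distal maxilla, against 11.16, 10.49 and 11.28 in controls. Among the 12 maxilla arrays the lowest values were those of mutant proximal maxilla 1 and 2 and mutant distal maxilla 1, which also had the lowest nasal marker means of the maxilla. In the mandible it read 10.45, 10.09 and 10.49 in mutants and 9.65, 9.08 and 10.24 in controls at the distal end, and 9.71, 9.60 and 9.95 in mutants and 9.05, 8.97 and 9.40 in controls at the proximal end. Mutants lay above controls in the proximal mandible without overlap. The difference was -1.90 ± 0.49 in the proximal maxilla (adjusted p = 0.0101), whereas -0.59 ± 0.49 in the distal maxilla, 0.69 ± 0.49 in the distal mandible and 0.61 ± 0.49 in the proximal mandible did not pass (adjusted p = 0.791, 0.607 and 0.544).

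**Figure D2:**
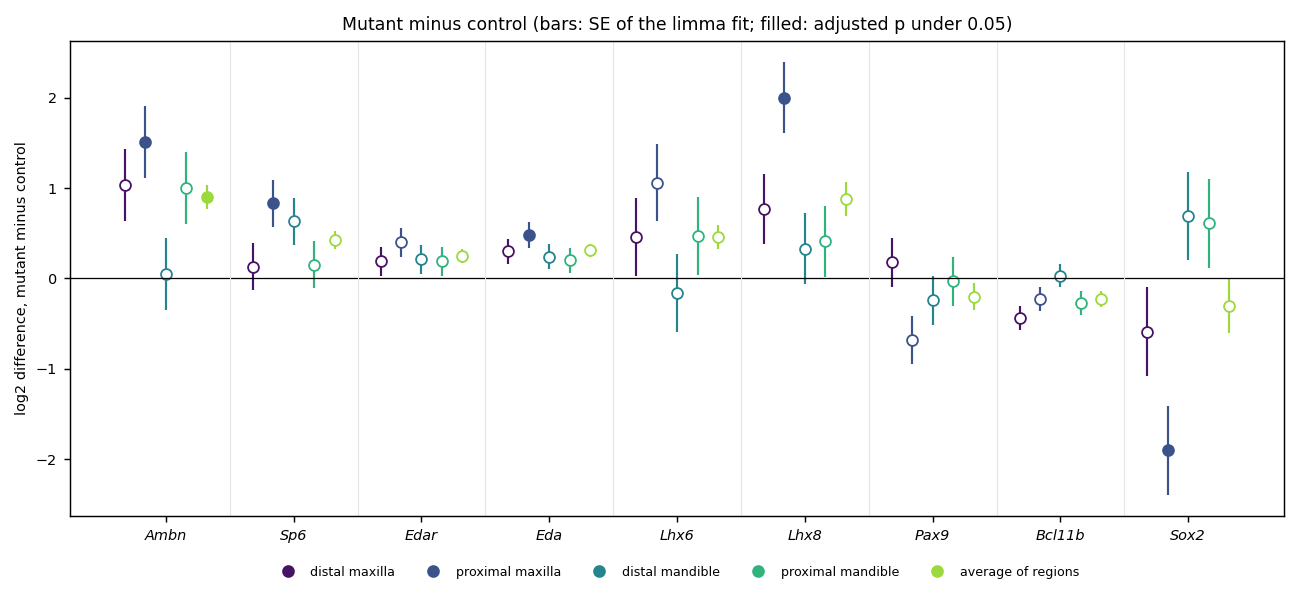
Log2 difference, mutant minus control, of each tooth germ gene in the 4 regions and in the average of regions; bars are standard errors of the limma fit and filled points passed an adjusted p of 0.05. The proximal maxilla holds 5 filled points, Lhx8 at 2.00 and Sox2 at -1.90 the farthest from 0, and the average of regions holds 1, Ambn at 0.90.

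The calls in the proximal maxilla were made again with fewer arrays and with covariates. With mutant distal maxilla 1 and mutant proximal maxilla 1 and 2 left out, which rests the region on 1 mutant array and on the spread of the other groups, none of the 5 passed, while Lhx8 and Sp6 kept most of their difference: Lhx8 was at 1.21 (adjusted p = 0.278), Sp6 at 0.63 (adjusted p = 0.456), Ambn at 0.19 (adjusted p = 0.903), Eda at 0.18 (adjusted p = 0.786) and Sox2 at -0.48 (adjusted p = 0.655). Of the members that had not passed, Lhx6 was then at 0.31, Edar at 0.35, Pax9 at -0.35 and Bcl11b at 0.00. In the distal maxilla Ambn was at 1.03, Lhx8 at 0.49, Pax9 at 0.40, Sp6 at 0.35, Edar at 0.33, Eda at 0.26, Sox2 at -0.05, Lhx6 at -0.20 and Bcl11b at -0.39 without these arrays, and none passed. With the means of the nasal and muscle lists as covariates, Sp6 was at 0.81 and Lhx8 at 1.01 (adjusted p = 0.474 and 0.463), Ambn at 0.32, Eda at 0.14 and Sox2 at 0.20, and none passed. In a fit to these 6 arrays alone none passed either, at the same differences (adjusted p = 0.0854 for Sp6, 0.0904 for Lhx8, 0.108 for Sox2, 0.139 for Eda and 0.149 for Ambn). Array weights let 7 members pass, the 5 with Lhx6 and Bcl11b, and the epithelium covariate 6, the 5 with Lhx6. The share of all genes that passed in these fits is not given here. Lhx8 kept its call without any 1 of the 6 arrays of the comparison. Ambn lost it without control proximal maxilla 3 (adjusted p = 0.0574), mutant 1 (0.0936) or mutant 2 (0.0645), Eda without control 1 (0.111), control 3 (0.0708), mutant 1 (0.131) or mutant 2 (0.0906), Sp6 without control 2 (0.12) or mutant 2 (0.145), and Sox2 without mutant 1 (-1.32, adjusted p = 0.0837).

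**Figure D3:**
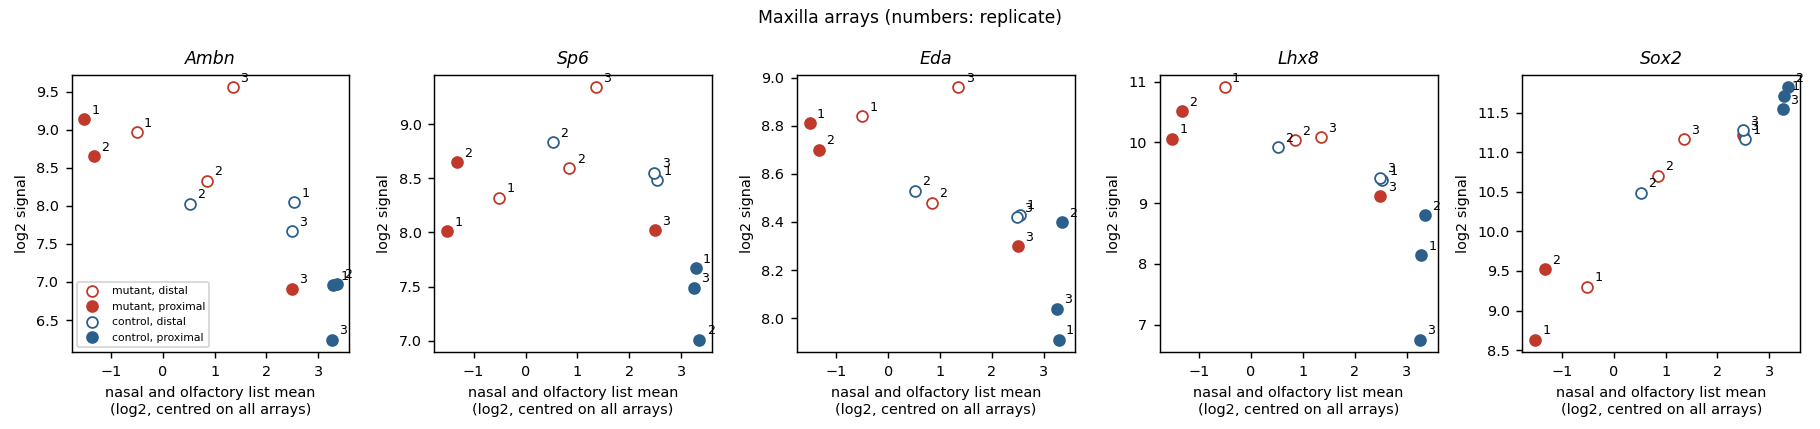
Log2 signal of the 5 members that passed in the proximal maxilla, against the mean of the nasal and olfactory marker list, in the 12 maxilla arrays; red is mutant, blue control, open circles distal and filled circles proximal ends, with replicate numbers. Mutant proximal maxilla 3, at a list mean of 2.50, sits near the controls for Ambn, Eda and Sox2.

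Averaged over the 4 regions of a genotype and replicate number, Ambn was higher in mutants. The 3 mutant averages were 9.33, 9.18 and 8.97, against 8.43, 8.33 and 8.03 in controls, a difference of 0.90 ± 0.13 (adjusted p = 0.0426). It was the only member of the 9 to pass, where 1.09% of all genes passed, 0.703% higher. Lhx8 had averages of 10.83, 10.82 and 10.55 in mutants and 9.92, 10.20 and 9.45 in controls (0.88 ± 0.19, adjusted p = 0.0939). The labels do not say that equal replicate numbers pair samples. In this comparison the deviations of same-numbered mutant and control averages correlated at 0.18 to 0.59. The adjusted p-values just given come from a limma fit without pairs, and the number entered only in an alternative fit. With the number as a block Lhx8 passed too (adjusted p = 0.0494, 2 members in all). Mutant and control averages did not overlap for 6 of the 9 members (Ambn, Lhx6, Lhx8, Eda, Edar and Sp6, all higher in mutants), beside 21.8% of all tested genes.

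The other members that kept apart had smaller differences in the average of regions. Sp6 averaged 8.84, 8.91 and 8.94 in mutants and 8.56, 8.25 and 8.59 in controls (0.43 ± 0.10, adjusted p = 0.097). Eda averaged 8.81, 8.64 and 8.77 in mutants and 8.36, 8.49 and 8.44 in controls (0.31 ± 0.07, adjusted p = 0.0939). Lhx6 had 0.46 ± 0.13 (adjusted p = 0.169) and Edar 0.25 ± 0.08 (adjusted p = 0.187), while Pax9 (-0.20 ± 0.15), Bcl11b (-0.23 ± 0.09) and Sox2 (-0.30 ± 0.30) had averages that overlapped between genotypes (adjusted p = 0.58, 0.271 and 0.693). Without the 3 mutant maxilla arrays Lhx8 was at 1.03 (adjusted p = 0.106), Sp6 at 0.69, Lhx6 at 0.38, Eda at 0.30, Edar at 0.21, Sox2 at -0.06, Pax9 at -0.08 and Bcl11b at -0.36, and none passed. The Ambn call ended after quantile normalization of the values (adjusted p = 0.057) and with the nasal and muscle covariates (0.61, adjusted p = 0.312). It ended too without the 3 mutant maxilla arrays (1.05, adjusted p = 0.0647), where the averages again cover unlike regions. Leaving out mutant number 1 (0.0796), mutant number 2 (0.192), control number 1 (0.125), control number 2 (0.106) or control number 3 (0.073) ended it as well.

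The mutant effect was then compared between jaws and between ends. Sox2 was the only member to pass between jaws: its effect averaged over both ends was higher in the mandible than in the maxilla by 1.90 ± 0.49 (adjusted p = 0.0286), in a comparison that 8.26% of all genes passed (3.93% in this direction). No member had an effect that passed between the ends of the maxilla (0 of 9, 2 at an unadjusted limma p under 0.05, Lhx8 and Pax9, background 0.00781%) or between those of the mandible (0 of 9, none at an unadjusted limma p under 0.05, background 0%). So the calls in the proximal maxilla alone do not show that the effect on Lhx8, Ambn, Sp6 or Eda differed between ends. The Sox2 call ended without the 3 mutant maxilla arrays (0.91, adjusted p = 0.18) and with the nasal and muscle covariates (0.36, adjusted p = 0.727). It also ended without control distal maxilla 1 (0.0528) or 3 (0.0547), control distal mandible 2 (0.0503), or mutant proximal maxilla 1 (1.61, adjusted p = 0.0513) or 2 (0.0572).

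In control embryos the 9 genes separated the jaws most at the proximal end. There 7 of the 9 passed between mandible and maxilla, where 33.6% of all genes did (16.6% higher and 17% lower): Lhx8, Ambn, Lhx6, Sp6 and Eda were higher in the mandible and Sox2 and Bcl11b lower. Lhx8 read 10.86, 10.95 and 10.62 in the mandible, against 8.14, 8.80 and 6.75 in the maxilla (2.91 ± 0.39, adjusted p = 3.12e-05). Ambn was higher by 2.80 ± 0.40 (adjusted p = 5.43e-05), Lhx6 by 1.89 ± 0.43 (adjusted p = 0.00224), Sp6 by 0.98 ± 0.26 (adjusted p = 0.00624) and Eda by 0.48 ± 0.14 (adjusted p = 0.0158). Sox2 differed by -2.55 ± 0.49 (adjusted p = 0.000675) and Bcl11b by -1.32 ± 0.13 (adjusted p = 3.64e-06). For Bcl11b all 4 probe sets passed in this direction. The values did not overlap between jaws for 8 of the 9 members, all but Pax9, beside 51.7% of all tested genes.

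The same control comparison also separated tissue markers. All 9 tested nasal and olfactory genes were lower in the proximal mandible than in the proximal maxilla, all 9 muscle genes were higher, and all 5 tested bone genes were higher. Of 8 epithelium genes 4 were lower and 2 higher in the mandible, and of 7 neuron genes 5 were lower and 0 higher. The part of neurons in the Bcl11b and Sox2 differences was not tested. With the nasal and muscle means as covariates only Bcl11b still passed (-1.01 ± 0.23). Sox2 was then at 0.28 ± 0.46, Lhx8 at 1.54 ± 0.60 and Ambn at 1.18 ± 0.59. Sp6 was at 0.93 ± 0.49, Lhx6 at 0.16 ± 0.63 and Eda at 0.01 ± 0.24. The 2 means nearly mark the jaw at this end. In control proximal maxilla the nasal mean was 3.26 to 3.35 and the muscle mean -1.89 to -0.91. In control proximal mandible they were -1.47 to -1.26 and 0.72 to 2.05. Standard errors rose for every gene named but Sox2, and this fit separates the jaw from the make-up of the piece only poorly. With the epithelium mean as a covariate, Lhx6 (1.12, adjusted p = 0.0806) and Eda (adjusted p = 0.0877) did not pass. Eda also lost its call without control proximal maxilla 1 (0.0866) or 3 (0.0567) or control proximal mandible 1 (0.0509) or 3 (0.0599).

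At the distal end 2 members passed between control jaws, where 8.81% of all genes did (3.08% higher). Lhx8 read 11.28, 11.14 and 11.00 in the mandible, against 9.38, 9.92 and 9.42 in the maxilla (1.57 ± 0.39, adjusted p = 0.019), and Sp6 read 9.59, 9.06 and 9.78 in the mandible, against 8.48, 8.83 and 8.55 in the maxilla (0.86 ± 0.26, adjusted p = 0.045). Neither pair of groups overlapped, as for 7 of the 9 members (all but Eda and Edar) and 33.8% of all genes. Control levels of Ambn were 8.80 to 8.93 in the distal mandible and 7.67 to 8.05 in the distal maxilla, and those of Lhx6 were 7.58 to 8.17 and 6.87 to 7.09, also without overlap but not past the threshold. Both calls ended without control distal maxilla 1 (adjusted p = 0.0761 for Lhx8, 0.144 for Sp6) or 3 (0.0765 and 0.134) or control distal mandible 1 (0.073 and 0.14), and that of Sp6 also without control distal mandible 3 (0.159), with no filter on low values (0.0552) and in a fit to the compared groups alone (0.0573). With the nasal and muscle covariates neither passed: Lhx8 was at 0.68 ± 0.51 (adjusted p = 0.501), while Sp6 stayed at 0.86 with a larger standard error of 0.42 (adjusted p = 0.278). These means did not overlap between the control jaws at this end either, so this fit too separates jaw and make-up only poorly.

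**Figure D4:**
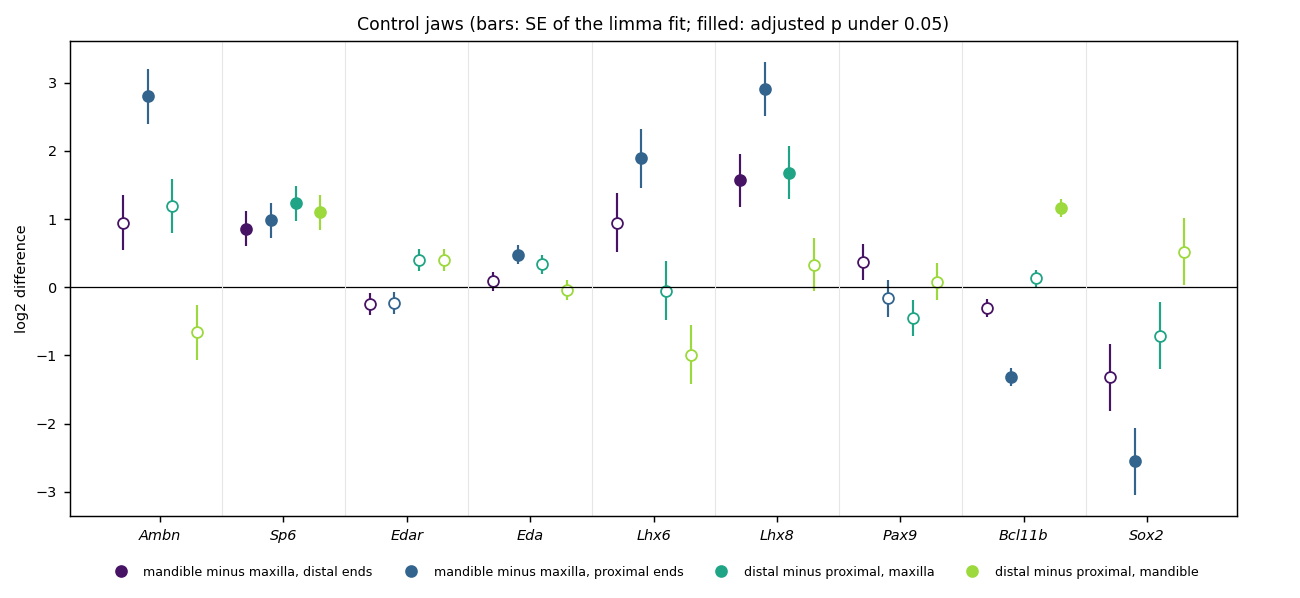
Log2 differences of the tooth germ genes between regions of control jaws: mandible minus maxilla at each end, and distal minus proximal in each jaw; bars are standard errors of the limma fit and filled points passed an adjusted p of 0.05. Sp6 is filled in all 4 comparisons, between 0.86 and 1.23, and Bcl11b only at the proximal ends and within the mandible.

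Between the ends of control jaws, Sp6 was higher distally in both. It was higher by 1.23 ± 0.26 in the maxilla (adjusted p = 0.00944) and by 1.10 ± 0.26 in the mandible (adjusted p = 0.016), with no overlap of the distal and proximal arrays in either. Its other probe set 1427787_at gave 1.24 (adjusted p = 0.0154) and 1.40 (adjusted p = 0.00639) in the fit over all probe sets, while 1442342_at passed in neither. In the maxilla Lhx8 was higher distally by 1.68 ± 0.39 (adjusted p = 0.0145). In the mandible Bcl11b read 11.89, 12.00 and 12.09 distally, against 10.64, 11.03 and 10.83 proximally (1.16 ± 0.13, adjusted p = 6.83e-05), and all 4 of its probe sets passed. Thus 2 of 9 members passed between the ends of each jaw, where 8.42% of all genes passed in the maxilla (5.09% higher distally) and 5.78% in the mandible (2.44% higher distally). Distal and proximal values did not overlap for 6 members in each jaw, beside 32.7% of all genes in the maxilla and 28.4% in the mandible.

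Markers of epithelium differed between ends in both jaws. In the maxilla 4 of 8 epithelium genes and all 6 tested cornified skin genes were higher distally and none lower, with medians of 0.61 and 3.05. The cornified skin mean was 0.74 to 1.84 in control distal maxilla, against -1.88 to 0.37 in control proximal maxilla. In the mandible 4 of 8 epithelium genes and 1 of 6 cornified skin genes were higher distally. The epithelium list mean was 0.28, -0.19 and 0.70 in control distal mandible, against -1.11, -1.17 and -0.60 in control proximal mandible. With that mean as a covariate Sp6 no longer passed between the ends of the mandible (0.77, adjusted p = 0.375) and Bcl11b did. Between the ends of the maxilla 4 members passed with it, and the share of all genes in that fit is not given here. The nasal and muscle covariates ended both calls in the maxilla (Sp6 at 1.17, adjusted p = 0.0555, and Lhx8 at 1.17, adjusted p = 0.116) and neither in the mandible, and in a fit to the compared groups alone Lhx8 did not pass (adjusted p = 0.109). In the mandible the Sp6 call ended without control distal mandible 1 (0.0653) or 3 (0.0914) or control proximal mandible 2 (0.0739), and the Bcl11b call held without any 1 of the 6 arrays. In the maxilla Sp6 lost its call without control distal maxilla 2 (0.076), and Lhx8 without control distal maxilla 2 (0.105) or control proximal maxilla 1 (0.0528) or 3 (1.11, adjusted p = 0.0577).

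The order of the 8 groups differed from gene to gene. Ambn and Lhx6 had their highest group means in mutant proximal mandible (10.53 ± 0.15 and 9.41 ± 0.25, SD, n = 3) and Lhx8 and Sp6 in mutant distal mandible (11.47 ± 0.16 and 10.10 ± 0.36), whereas Sox2 and Pax9 were highest in control proximal maxilla (11.69 ± 0.14 and 9.21 ± 0.27). Control proximal maxilla was the lowest group for Ambn (6.73 ± 0.42), Lhx8 (7.90 ± 1.04), Eda (8.12 ± 0.26) and Sp6 (7.39 ± 0.34), and it overlapped with the next group for none of these 4. The highest and the lowest group mean lay 3.81 apart for Ambn, 3.58 for Lhx8, 2.71 for Sp6, 2.55 for Sox2, 2.41 for Lhx6, 1.72 for Bcl11b, 0.82 for Edar and 0.68 for Eda and Pax9. Most neighbouring groups in each order overlapped. For Ambn the 2 proximal mandible groups stood apart, since the lowest mutant (10.42) lay above the highest control (9.81). For Bcl11b both proximal mandible groups (10.57 ± 0.21 in mutants and 10.83 ± 0.20 in controls) lay below all 6 other groups, which ranged from 11.85 ± 0.18 to 12.29 ± 0.13.

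Wider lists of tooth genes were read beside the 9, with some overlap: Lhx6, Lhx8 and Pax9 are also in the dental mesenchyme list, Ambn in the enamel and dentin list, and Eda and Edar in the ectodysplasin pathway list. Of 21 tested dental mesenchyme genes 9 were higher in mutant proximal maxilla and 0 lower, beside 12.2% and 11.1% of all genes, with a list median of 0.61 beside 0.01 over all genes. Examples were Gli1 (1.03 ± 0.15, adjusted p = 0.000358), a transcription factor and target of Hedgehog signalling, Osr2 (1.26 ± 0.23, adjusted p = 0.00121), which restricts the tooth field in the mouse, and Dlx2 (1.61 ± 0.31, adjusted p = 0.00157), a homeodomain factor of the branchial arches. Of 15 tested dental epithelium genes 5 were higher and 1 lower, among them Irx1 (2.37 ± 0.43, adjusted p = 0.00106), Shh (1.88 ± 0.47, adjusted p = 0.00839), the Hedgehog ligand of the enamel knot, Wnt10a (1.01 ± 0.25, adjusted p = 0.00844) and, lower, Fgf20 (-1.24 ± 0.22, adjusted p = 0.00111). The epithelium list mean was -0.14, -0.16 and 0.53 in mutant and -0.67, -0.12 and 0.31 in control proximal maxilla, with 4 of its 8 genes higher and 3 lower in mutants. Of 6 tested cornified skin genes 4 were higher in mutants and 0 lower (median 2.84), with list means of 1.26, 0.91 and 0.71 in mutants, against -1.84, -1.88 and 0.37 in controls, and 3 of 4 hair follicle genes were higher, with the list means given for Sp6. The part of skin and hair in the higher Shh, Wnt10a and Edaradd was not tested. Shh ranged from 8.47 to 10.39 in mutant and from 6.23 to 8.16 in control proximal maxilla, without overlap.

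In the ectodysplasin pathway 3 of 11 tested genes were higher in mutant proximal maxilla and 1 lower, in the comparison where 12.2% of all genes were higher and 11.1% lower. Edaradd, the adaptor that binds the receptor, ranged from 8.58 to 9.14 in mutants and from 7.52 to 8.26 in controls (1.00 ± 0.21, adjusted p = 0.00299). Tnfrsf19, a related receptor of the TNF family, was higher by 0.70 ± 0.16 (adjusted p = 0.00424), Eda is given above, and Ikbkg, a subunit of the kinase complex upstream of NF-kappaB, was lower (-0.25 ± 0.09, adjusted p = 0.0473). Of the enamel and dentin genes only 4 of 10 exceeded the array median often enough to be tested, and Amelx, Enam, Amtn, Mmp20, Klk4 and Dspp never exceeded it. Ambn was the 1 of those 4 to pass in the proximal maxilla. Without the 3 mutant maxilla arrays the counts of higher genes were 0 for dental mesenchyme, 1 for dental epithelium and 0 for the ectodysplasin pathway, and with the nasal and muscle covariates they were 0 for all 3 lists. The 1 dental epithelium gene was Irx1 (2.05, adjusted p = 0.0385). Without these arrays Osr2 was at 1.27, Gli1 at 0.58, Dlx2 at 0.77, Dlx1 at 1.02, Shh at 1.36, Wnt10a at 0.66, Fgf20 at -0.61, Edaradd at 0.70, Tnfrsf19 at 0.65 and Ikbkg at -0.12, all with the sign they had before, none past the threshold and with 1 mutant array in the region.

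**Figure D5:**
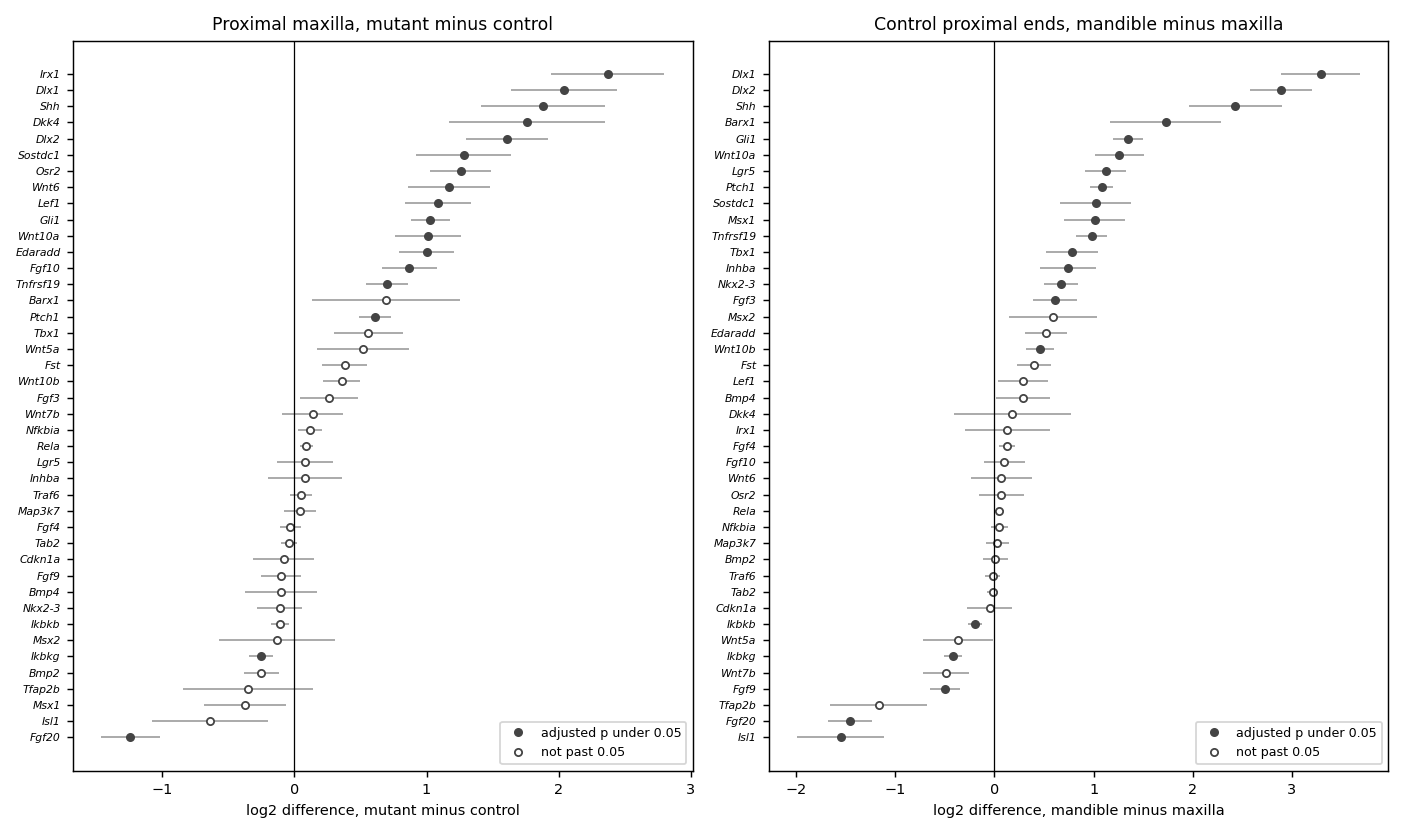
Log2 differences of the tested genes of the ectodysplasin pathway, dental epithelium and dental mesenchyme lists, the 9 members left out: mutant minus control in the proximal maxilla (left) and mandible minus maxilla in control proximal ends (right). Bars are standard errors of the limma fit and filled points passed an adjusted p of 0.05; Irx1 at 2.37 and Dlx1 at 2.04 lead on the left, Dlx1 at 3.29 and Dlx2 at 2.89 on the right.

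Genes of these lists also passed between genotypes outside the proximal maxilla. In the average of regions 2 of 21 dental mesenchyme genes passed, where 1.09% of all genes did, both higher in mutants: Dlx2 (0.70 ± 0.08, adjusted p = 0.0296) and Dlx1 (0.83 ± 0.13, adjusted p = 0.0489). Without the 3 mutant maxilla arrays, where the averages cover unlike regions, Dlx2 was at 0.98 (adjusted p = 0.0928) and Dlx1 at 0.86 (adjusted p = 0.103). In the proximal mandible 3 of 15 dental epithelium genes passed, beside 4.34% of all genes: Bmp2, a growth factor of the enamel knot, was higher (0.47 ± 0.13, adjusted p = 0.0411), and Isl1 (-1.63 ± 0.44, adjusted p = 0.0437), a LIM-homeodomain factor of incisor epithelium, and Lgr5 (-0.76 ± 0.21, adjusted p = 0.0499) were lower. Isl1 ranged from 6.16 to 6.55 in mutant and from 6.85 to 9.34 in control proximal mandible. The mean of a list of neuron markers ranged from -1.34 to -0.7 in mutant and from -1.17 to 0.91 in control proximal mandible. The part of neurons in the Isl1 difference was not tested.

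The control jaws differed in the same lists. At the proximal ends 12 of 21 dental mesenchyme genes were higher in the mandible and 0 lower, beside 16.6% and 17% of all genes, led by Dlx2 (2.89 ± 0.31, adjusted p = 5.81e-06), Ptch1 (1.08 ± 0.12, adjusted p = 7.25e-06), Gli1 (1.35 ± 0.15, adjusted p = 8.18e-06) and Dlx1 (3.29 ± 0.40, adjusted p = 1.45e-05), with a list median of 0.67 beside 0.02 over all genes. With the nasal and muscle covariates, which nearly mark the jaw at this end, 2 of the 21 passed higher. Of the dental epithelium genes 5 were higher and 3 lower in the mandible, including Shh (2.43 ± 0.47, adjusted p = 0.0007) and Fgf20 (-1.46 ± 0.22, adjusted p = 9.24e-05). Of the 4 tested enamel and dentin genes 3 were higher: Ambn, Dmp1 (2.68 ± 0.54, adjusted p = 0.000928), a matrix protein of bone and dentin, and Odam (1.38 ± 0.52, adjusted p = 0.0468), a protein of maturing enamel organ. Dmp1 is also in the bone marker list, all 5 tested genes of which were higher in the mandible. The part of bone in the Ambn and Dmp1 differences was not tested. The control proximal maxilla arrays enter both this comparison and that of the mutants, so the 2 sets of values are not independent.

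Between control ends, 10 of 21 dental mesenchyme genes were higher and 1 lower in the distal maxilla, where 8.42% of all genes passed and 5.09% of all genes were higher distally. Those named were Gli1 (1.07 ± 0.15, adjusted p = 0.00119), Ptch1 (0.79 ± 0.12, adjusted p = 0.00154), Dlx2 (1.90 ± 0.31, adjusted p = 0.0025) and Sostdc1 (2.03 ± 0.36, adjusted p = 0.00462). The hair follicle list mean was 0.27 to 0.67 in control distal and -0.91 to -0.32 in control proximal maxilla, with 2 of 4 tested genes higher distally and 0 lower. The part of hair and skin in these differences was not tested. In the mandible, where 5.78% of all genes passed and 2.44% were higher distally, 3 genes of the dental mesenchyme list were higher distally. These were Nkx2-3 (0.77 ± 0.17), Wnt5a (1.50 ± 0.35) and Msx2 (1.60 ± 0.44). Barx1, a homeodomain factor of the molar field, was lower distally (-2.64 ± 0.56, adjusted p = 0.00802). Of 8 epithelium genes 4 were higher distally too, and the part of epithelium in these differences was not tested. The enamel organ gene Odam (1.82 ± 0.52, adjusted p = 0.045) and Tuft1 (1.14 ± 0.24, adjusted p = 0.00841) were higher in the distal mandible, where Sp6 was also highest. Dmp1 was lower there (-2.70 ± 0.54, adjusted p = 0.00569), as were 4 of the 5 tested genes of the bone list, to which it also belongs.

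Across the 24 arrays, the tested genes with profiles most like each member were found by Pearson's r. These values are descriptions over arrays that share regions and genotypes, with no test. They were Mpped1 (0.98) for Sp6, Ptpn3 (0.97) for Sox2, Pheta2 (0.96) and Frzb (0.94) for Ambn, Lmo1 (0.95) for Bcl11b, Gpc3 (0.94) and Ptch1 (0.93) for Lhx8, Plcl2 (0.94) for Lhx6, Erbb2 (0.91) for Edar and Gng11 (0.90) for Eda. Pax9 had no near match, its closest gene being Esf1 (0.75). Among the members themselves r was 0.83 between Ambn and Lhx8, 0.76 between Ambn and Lhx6, 0.77 between Lhx8 and Eda, and -0.82 between Lhx6 and Bcl11b. Pax9 had r between -0.33 and 0.31 with the other 8.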

How the data were processed

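The deposited values are log2 signals from an Affymetrix mouse array, for 45101 probe sets on 24 arrays. The submitters' processing notes name RMA and Partek 6.6, with settings and genome build not given in the sources used here. Per the labels, 5 µg of total RNA was labelled with biotin. That the deposited values are log2 was read from their range (3.441 to 14.831, array medians 6.929 to 6.999). The number of arrays limits the precision, and dim probe sets understate changes.

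Probe sets with 1 gene symbol in the platform annotation were kept, control probe sets left out, and the brightest stood for a gene. All 24 arrays in 8 groups entered 1 two-sided limma fit (version 3.58.1, R 4.3.3, lmFit and eBayes), with Benjamini-Hochberg adjustment over 12811 genes and a threshold of 0.05. For the average of regions, the 4 arrays with 1 genotype and number were averaged first. The fit was checked on simulated data. Deviations from group means correlated over 0.1 in every same-numbered pair in 6 of 9 comparisons (range -0.01 to 0.59), the average of regions among them. The main fits were nevertheless unpaired, and the numbers entered only as the replicate block of an alternative fit. Members and lists were chosen with earlier results of these data known. The text names all members, up to 4 genes per list and comparison by smallest adjusted p, the closest profiles by r, and Tgfbr2. Alternatives were the filter, the probe set rule, array weights, quantile normalization, covariates, a replicate block, the arrays fitted and leaving out arrays. There were 0 columns outside the listed samples.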

Additional observations from a re-analysis of the deposited data

Results flagged for a closer look

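The mutant effect on Sox2 differed between the jaws. The mandible minus maxilla difference of that effect was 1.90 on the log2 scale (adjusted p = 0.0286, limma), tested directly as an interaction. In single regions the effect was 0.69 and 0.61 in the distal and proximal mandible and -0.59 and -1.90 in the distal and proximal maxilla, and of these only the last passed. The 3 mutant maxilla arrays with the lowest Sox2 values (8.63, 9.30 and 9.52) were those with the lowest nasal and olfactory marker means of the maxilla arrays (-1.52, -0.51 and -1.33). Without them the difference was 0.91 (adjusted p = 0.18).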

How the results depend on the processing

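Counts below are of members that passed (of 9). The share of all genes that passed under each alternative is given only for the replicate block, so a changed count is not read as a result about the members. In the proximal maxilla the count was 5 as reported and 0 without the 3 mutant maxilla arrays, with nasal and muscle covariates, and with only the arrays compared, while array weights gave 7 and the epithelium covariate 6; leaving out arrays in turn gave 2 to 7. Array weights gave 2 in the distal maxilla, 1 (Ambn) in the proximal mandible, 7 and 5 between control jaws at the distal end and control maxilla ends, 4 and 3 for the differences of effect between jaws and maxilla ends, and 3 in the average of regions. The proximal mandible also had 1 without the 3 arrays and with only the arrays compared. Between control jaws the distal count was 1 with no filter, 5 without the 3 arrays, 0 with nasal and muscle covariates, 4 with only the arrays compared and 0 to 2 leaving out arrays; the proximal count was 1 with those covariates and 6 to 7 leaving out arrays. Between control ends the maxilla had 0, 4 and 1 with nasal and muscle covariates, the epithelium covariate and only the arrays compared, and 0 to 3 leaving out arrays; the mandible had 1 with the epithelium covariate, 4 with only the arrays compared and 1 to 2 leaving out arrays. The jaw difference of effect had 0 without the 3 arrays and with nasal and muscle covariates, and 0 to 3 leaving out arrays; that between maxilla ends had 0 to 1. The average of regions had 2 with the replicate block and the epithelium covariate, and 0 to 2 leaving out numbers. It had 0 after quantile normalization, with nasal and muscle covariates, and without the 3 arrays, where the averages cover unlike regions. The cause was not tested, except that fewer arrays entered some fits.

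Signs changed as follows. With nasal and muscle covariates the difference was 0.17 for Sox2 in the distal maxilla, -0.26, 0.05, 0.01 and 0.20 for Lhx6, Pax9, Bcl11b and Sox2 in the proximal maxilla, 0.13 and -0.05 for Lhx6 and Bcl11b in the distal mandible, 0.08 and 0.64 for Pax9 and Sox2 in the average of regions, and 0.28 for Sox2 between control proximal ends. With the epithelium covariate Lhx6 and Bcl11b were at 0.22 and -0.05 in the distal mandible. Lhx6 in the distal maxilla was at -0.02 with array weights, -0.20 without the 3 arrays and -0.20 to 0.88 leaving out arrays in turn. Leaving out arrays gave -0.17 to 0.40 for Pax9 and -0.16 to 0.35 for Sp6 there, both lowest without mutant 3, and Bcl11b in the proximal maxilla was at 0.00 without the 3 arrays. In the distal mandible leaving out arrays gave -0.14 (without mutant 2) to 0.17 for Ambn and -0.06 (without mutant 3; -0.02 without control 1) to 0.09 for Bcl11b. Pax9 in the proximal mandible was at 0.11 as the mean of its probe sets, 0.03 after quantile normalization and -0.06 to 0.00 leaving out arrays.

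With the replicate block, the average of regions let Lhx8 pass (0.88, limma adjusted p = 0.0494), and Sox2 passed between control distal ends (-1.32, adjusted p = 0.0432, against 0.102 without it), where the samples share only a number. No other member's call changed. With the block the share of all genes that passed rose from 1.09% to 1.43% in the average of regions and from 8.81% to 16.5% between control distal ends. It rose from 23.3% to 31.4% in the proximal maxilla and from 0.742% to 2.76% in the distal mandible. In the proximal mandible it rose from 4.34% to 10.6%, and between control maxilla ends from 8.42% to 13.5%. Edar, near background, limits what can be read of the receptor.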
